A study of Mus musculus with 8 samples.

Results

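Mitochondrial fatty acid oxidation and ketogenesis were followed here through 37 genes, taken by gene symbol from a list of the pathway; no measured value enters the rule, but the list was drawn up with earlier results of these data known. They are 37 of the 55401 genes in the deposited tables, and all 37 passed the expression filter that left 13908 genes for testing. By role they are 10 genes of fatty acid activation and binding, 6 of the carnitine shuttle, 9 acyl-CoA dehydrogenases and electron transfer proteins, 8 enzymes of the later oxidation steps, and 4 genes of ketone bodies and pyruvate dehydrogenase control. The study compared livers of C57BL/6J mice that received either the control hairpin shNC or the hairpin shTbl1xr1, which targets Tbl1xr1, with 4 libraries in each group. Both hairpins were carried by adeno-associated viruses aimed at hepatocytes, so both groups had virus, and other liver cells were not the target. Partial hepatectomy, the removal of most of the liver, followed 4 weeks after infection in both groups, and whole liver was taken at day 2 after surgery for total RNA. The labels name neither sex nor age, and both groups were infected and operated. The labels number the libraries within a group but do not say that each came from a separate animal, so p-values measure the spread between these libraries, which may be technical.

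Long-chain fatty acids are joined to coenzyme A, carried through the mitochondrial membranes as carnitine esters, and shortened in repeated rounds of dehydrogenation, hydration, a further dehydrogenation and thiolysis. Electrons from the first step pass through the electron transfer flavoprotein to the respiratory chain, and in liver much of the acetyl-CoA formed is made into ketone bodies for export. The nuclear receptor PPAR alpha drives many of these genes in hepatocytes, and TBL1XR1 belongs to the NCoR and SMRT corepressor complexes, which act on nuclear receptors.

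The deposited tables give an expected count for each gene, an estimate of its fragments that need not be whole, and a TPM, which is scaled by gene length and has the same sum in every library. Library totals were 25811763 to 27537235 expected counts in shNC. They were 10895508 and 10728583 in shTbl1xr1 1 and 2, and 26976205 and 36720879 in shTbl1xr1 3 and 4. The shallow libraries, shTbl1xr1 1 and 2, stood apart from the other 6 on the first principal component, which held 59.3% of the variance, and had 11.3% and 14.8% of counts in mitochondrially encoded genes against 4.52% to 7.34% elsewhere. The hepatocyte marker Alb was abundant in both groups, at 47727 ± 6979 CPM, which are counts scaled to library size and by TMM, in shNC and 46746 ± 9011 in shTbl1xr1 (SD, n = 4). Summed levels of 10 macrophage markers were 582 to 937 CPM in shNC, 319 and 342 in the shallow libraries and 676 and 716 in shTbl1xr1 3 and 4. The targeted gene Tbl1xr1 was at 27.2, 35.9, 33.7 and 34.6 CPM in shNC 1 to 4 and at 2.38, 2.07, 9.24 and 15.9 CPM in shTbl1xr1 1 to 4. The groups did not overlap, and the deeper shTbl1xr1 libraries had more of the transcript than the shallow ones. The shallow libraries held 19 and 15 counts of this transcript, which is 6242 bases long. Over all genes tested, transcripts longer than 2179 bases had a median difference from shNC of -0.37 there, on the log2 scale. What part length has in the difference between the pairs was not tested. The log2 fold change of Tbl1xr1 was -2.07 (SE 0.54). Its adjusted p was 0.290 in edgeR's quasi-likelihood test with Benjamini-Hochberg adjustment, so the knockdown itself did not pass the threshold of 0.05.

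Promoters are shown for 4 members whose groups did not overlap, taken in order of the size of the log2 fold change. Each had a RefSeq promoter window with at least 50 bases before the start that were free of GENCODE exons. Acat1 had no window and Etfdh had too few such bases, so neither is shown. Hadha was left out because its bases are already in the Hadhb window. Sequences and coordinates are RefSeq's on GRCm38.p6, the assembly that mm10 denotes, read 5′ to 3′ on the gene's strand, with positions counted from the RefSeq transcript start. Capitals mark matches to the hexamer AGGTCA that nuclear receptors bind, in Acadm, or to the SP1-type GC box GGGCGG, in the other 3, each searched on both strands. Acadm lies at chr3:153944644-153944893 (minus strand), with its match at position -249. Hadhb lies at chr5:30155163-30155247 (plus strand), with GC boxes at -90 and -25. Acadl lies at chr1:66863310-66863559 (minus strand), with GC boxes at -84, -66, -31 and -7. Cpt2 lies at chr4:107923611-107923839 (minus strand), with GC boxes at -65 and -38.
Acadm: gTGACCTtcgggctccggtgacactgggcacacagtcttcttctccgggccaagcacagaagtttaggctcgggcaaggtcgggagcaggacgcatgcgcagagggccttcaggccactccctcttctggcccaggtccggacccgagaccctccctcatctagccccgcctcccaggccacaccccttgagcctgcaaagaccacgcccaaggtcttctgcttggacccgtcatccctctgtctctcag
Hadhb: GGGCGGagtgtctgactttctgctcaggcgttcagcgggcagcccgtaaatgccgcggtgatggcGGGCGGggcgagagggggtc
Acadl: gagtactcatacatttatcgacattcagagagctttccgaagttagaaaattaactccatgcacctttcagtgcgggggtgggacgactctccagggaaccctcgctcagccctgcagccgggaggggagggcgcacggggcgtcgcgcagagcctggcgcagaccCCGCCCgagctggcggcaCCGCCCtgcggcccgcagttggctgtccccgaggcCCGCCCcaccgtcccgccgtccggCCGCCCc
Cpt2: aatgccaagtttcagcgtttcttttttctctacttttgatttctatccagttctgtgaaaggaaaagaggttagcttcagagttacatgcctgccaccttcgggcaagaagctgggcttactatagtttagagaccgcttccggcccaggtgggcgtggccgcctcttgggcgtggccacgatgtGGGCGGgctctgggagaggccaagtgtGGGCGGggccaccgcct
The Hadhb bases also lie upstream of Hadha, which is read in the opposite direction from a start 86 bases away in the GENCODE annotation.

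RefSeq's table held promoter windows of 300 bases (250 before and 50 after the start) for 32 of the 37 members. GGGCGG was present on either strand in 21 of the 32 members (65.6%) and in 38.2% of all 27025 genes with a window. CCAAT, the letters bound by NF-Y, was present in 17 members (53.1%) and in 41.1% of all genes. AGGTCA was present in 6 members (18.8%) and in 18.1% of all genes. The PPAR response element, written as AGGTCA, any 1 base and AGGTCA again, so that its matches overlap those of the hexamer, matched no member exactly and 0.0481% of all genes. With up to 2 mismatches it matched 4 members (12.5%: Fabp1, Echs1, Etfa and Slc25a20) and 4.40% of all genes. TATAAA was found in 1 member, Fabp1, at position -30, and in 15.7% of all genes. CACGTG, the E-box of CLOCK and USF, was present in 2 members (6.25%) and in 8.09% of all genes. The NRF1 letters, GCGCA followed directly by TGCGC, were present in 1 member, Etfdh, at position -128, and in 1.07% of all genes. The cyclic AMP response element TGACGTCA was in 0 members and 2.03% of all genes. Members' windows had a median GC content of 60.3%, against 52.7% for all windows. These are matches of letters in short windows and say nothing of binding, and sites outside the windows were not searched.

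Most of the 37 genes were somewhat lower in shTbl1xr1 than in shNC, but none passed the test. The log2 fold change was below 0 for 25 members and above 0 for 12, with a median of -0.24 and a range of -0.97 to 0.60, beside a median of 0.01 over all genes tested. edgeR's quasi-likelihood test with Benjamini-Hochberg adjustment called 0 of the 37 members, with a smallest adjusted p of 0.196, beside 7 of 13908 genes (0.0503%). At an unadjusted p under 0.05, 5 members (13.5%) were lower and 0 were higher, beside 3.71% and 7.9% of all genes. The groups did not overlap for 7 members, all lower in shTbl1xr1 (18.9%, beside 3.37% of all genes), and 0 members lay above (3.88% of all genes; 7.25% in either direction). Among other fits, DESeq2 called Acadm, Acat1 and Etfdh lower and 0 members higher (backgrounds 0.338% and 1.78%). A fit with 1 surrogate variable called Acadm lower and 0 higher (backgrounds 0.0288% and 0.273%). Limma-voom with sample weights, which give more variable libraries less weight, called 0 members (backgrounds 0.0144% lower and 0.223% higher). With scaling by library size alone, 35 members had log2 fold changes below 0 and 2, Etfb and Pdk2, above, with a median of -0.53 where the median of all genes was itself -0.27. In whole liver, fewer hepatocytes in the sample and less RNA per hepatocyte cannot be told apart.

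**Figure D1:**
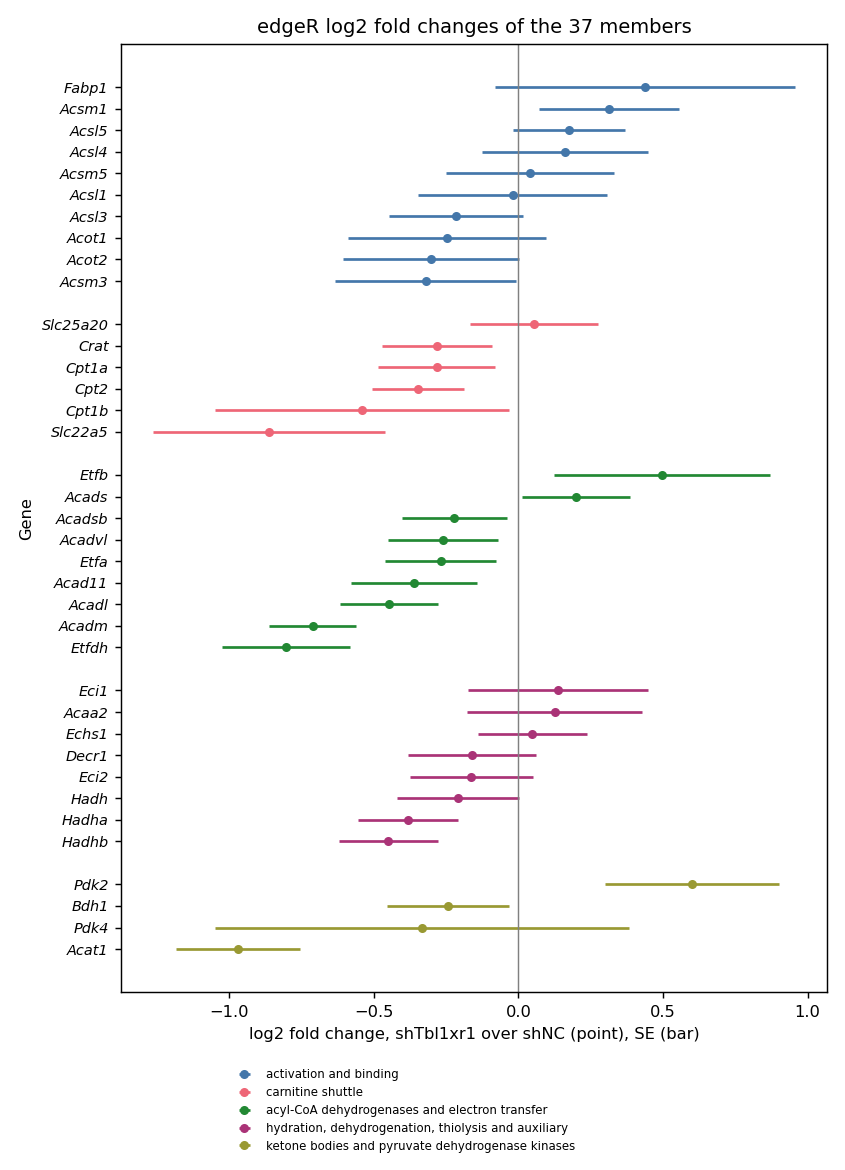
Log2 fold change of each member, shTbl1xr1 over shNC (points, horizontal axis), with bars of 1 SE from the edgeR fit of 4 against 4 libraries; colours mark the roles. Acat1 lies farthest to the left at -0.97 and Pdk2 farthest to the right at 0.60, and 25 of the 37 points lie below 0.

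Transcript levels per length show which of these genes dominate. Fabp1, the cytosolic fatty acid binding protein of hepatocytes, had 7818 ± 1363 TPM in shNC (SD, n = 4) and held 52.7% to 64.1% of the TPM of all members there. Etfb at 859 ± 68.0 TPM and Acaa2 at 762 ± 78.4 TPM came next and overlapped within their spread. Etfa followed at 318 ± 23.2 TPM and Acadm at 272 ± 27.1 TPM. At the low end were Slc22a5 at 12.4 ± 6.53 TPM, Acsl3 at 11.9 ± 3.55 TPM and Acot2 at 11.1 ± 4.43 TPM, which did not differ beyond their spread, and Cpt1b at 0.97 ± 0.23 TPM. Together the members took 1.46%, 1.16%, 1.35% and 1.46% of TPM in shNC 1 to 4 and 1.11%, 1.05%, 0.736% and 1.06% in shTbl1xr1 1 to 4. All 4 shTbl1xr1 shares were below the lowest shNC share. Mitochondrially encoded genes held 17.4% and 21.9% of TPM in the shallow libraries and 9.93% to 15.8% in the other 6. With those genes left out, the shares were 1.32% to 1.74% in shNC, 1.35% in each shallow library, and 0.817% and 1.24% in shTbl1xr1 3 and 4, so only the deeper pair stayed below the shNC range. The members' summed CPM was 8076 to 10009 in shNC, 11535 and 11987 in the shallow libraries and 5837 and 7748 in the deeper ones. Fabp1 made up less of this sum than of the TPM, with a mean of 1949 CPM in shNC.

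Activation and binding genes were split in direction on the TMM scale. Of these 10 members, 5 had a log2 fold change above 0 (all of them below 0 when libraries were scaled by size alone) and 5 below, with a median of 0.01. None had groups that did not overlap. Fabp1 was at 2543, 1582, 1620 and 2051 CPM in shNC 1 to 4, and at 4060, 4408, 754 and 1344 CPM in shTbl1xr1 1 to 4. Both shallow libraries were above every shNC library and both deeper ones below, so the log2 fold change of 0.44 (SE 0.52) averages opposite differences (edgeR adjusted p 0.722). On the deposited TPM scale Fabp1 was at 9376, 6330, 7101 and 8464 in shNC and at 7786, 7574, 3200 and 5586 in shTbl1xr1, where the shallow libraries lie inside the shNC range. Acsl1, the main long-chain acyl-CoA synthetase of liver, averaged 427 ± 73.4 CPM in the shNC libraries and 421 ± 192 CPM in the shTbl1xr1 ones (SD, n = 4), a log2 fold change of -0.02 (SE 0.33). Its relatives Acsl3, Acsl4 and Acsl5, which prefer other sites or acyl chains, had log2 fold changes of -0.22, 0.16 and 0.17. The medium-chain synthetases Acsm1, Acsm3 and Acsm5 had log2 fold changes of 0.31, -0.32 and 0.04. The thioesterases Acot1 and Acot2, which release the fatty acid again, had -0.25 and -0.30. Acot1 and Acot2 are near-identical neighbours, so the split of fragments between them is uncertain. Acsl3 also overlaps the gene Utp14b on the same strand, and Acsm3 overlaps Eri2 on the other strand. Mean counts of Utp14b and Eri2 were 203 and 499, beside 603 and 829 for the members. No source used here gives the strand setting, which bears on Acsm3 and Eri2 only.

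The carnitine shuttle lay lower in 5 of its 6 members, with a median log2 fold change of -0.32. Cpt1a, the liver carnitine palmitoyltransferase of the outer membrane and the controlled step of the pathway, was at 335, 296, 339 and 411 CPM in shNC 1 to 4, and at 211, 281, 295 and 348 CPM in shTbl1xr1 1 to 4. The groups overlapped, since shTbl1xr1 4 exceeded 3 of the shNC libraries. The log2 fold change of Cpt1a was -0.28 (SE 0.20; edgeR adjusted p 0.550). Cpt2, which turns acylcarnitine back into acyl-CoA at the inner membrane, was at 166, 150.5, 183 and 181 CPM in shNC 1 to 4, and at 135, 140.3, 111 and 148 CPM in shTbl1xr1 1 to 4. On this TMM scale all shTbl1xr1 libraries were below all shNC libraries, although the nearest values of the groups differed by little. On the deposited TPM scale Cpt2 overlapped between the groups, with shTbl1xr1 4 at 94.0 and shNC 1 and 2 at 91.5 and 92.0. Its means were 170 ± 15.0 and 134 ± 16.1 CPM (SD, n = 4), a log2 fold change of -0.35 (SE 0.16; edgeR adjusted p 0.426). Slc25a20, the carrier that exchanges acylcarnitine for carnitine, had a log2 fold change of 0.05 (SE 0.22). Crat, the short-chain carnitine acetyltransferase, had -0.28 (SE 0.19) and overlaps Dolpp1 on the other strand. Slc22a5, the plasma membrane carnitine transporter, had the lowest value of the shuttle at -0.86 (SE 0.40; unadjusted p 0.0577, edgeR adjusted p 0.426), with 26.5 ± 12.4 CPM (SD, n = 4) as the shNC mean and 14.4 ± 6.31 CPM as the shTbl1xr1 mean.

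Cpt1b, the muscle form of the outer membrane enzyme, was near the floor of detection, as shNC 1 to 4 gave it 32, 37, 52 and 51 counts and shTbl1xr1 1 to 4 gave it 1, 4, 42 and 62. The low counts were in the shallow libraries, and the deeper ones were within or above the shNC range in counts. In CPM the deeper ones were at 1.35 and 1.54, within the shNC range of 1.15 to 1.74, and the shallow ones at 0.125 and 0.552. Cpt1b also overlaps Gm44502 on the same strand, whose mean count was 15.4 beside 35.1 for Cpt1b. Of 8 muscle markers 0 passed the filter, with summed levels of 0.166 to 0.490 CPM in shNC and 0.161 to 0.751 CPM in shTbl1xr1, and Mb and Tnnt3 had 0 counts in every library.

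Acyl-CoA dehydrogenases and electron transfer proteins held 3 of the 7 members whose groups did not overlap. Acadm (ENSMUSG00000062908.12; chromosome 3, 153922357 to 153944632, minus strand, mm10), the medium-chain acyl-CoA dehydrogenase, was at 353, 333, 312 and 338 CPM in shNC 1 to 4, and at 204, 212, 192 and 207 CPM in shTbl1xr1 1 to 4. Every shTbl1xr1 library was far below every shNC library, and the shallow and deeper libraries were close to each other on this TMM scale. On the deposited TPM scale Acadm was at 239 to 306 in shNC, at 75.9 and 69.0 in the shallow libraries and at 150 and 179 in the deeper ones, again with no overlap between the groups. The means were 334 ± 17.0 and 204 ± 8.43 CPM (SD, n = 4), a log2 fold change of -0.71 (SE 0.15; unadjusted p 0.000873). edgeR's quasi-likelihood test with Benjamini-Hochberg adjustment gave Acadm an adjusted p of 0.196, the smallest among the members, and DESeq2 gave 3.4e-09. Adjusted p-values for Acadm ran from 3.4e-09 to 0.666 over all the alternatives run.

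Etfdh (ENSMUSG00000027809.14; chromosome 3, 79603788 to 79629500, minus strand), the oxidoreductase that passes electrons from the flavoprotein to ubiquinone, was at 153, 136, 226 and 183 CPM in shNC 1 to 4, and at 85.4, 85.6, 95.3 and 133.3 CPM in shTbl1xr1 1 to 4. The groups did not overlap on this TMM scale, but shTbl1xr1 4 came close to shNC 2. On the deposited TPM scale they did overlap, with shTbl1xr1 4 at 83.6 and shNC 2 at 82.4. The log2 fold change was -0.80 (SE 0.22; unadjusted p 0.00493, edgeR adjusted p 0.311). Acadl (ENSMUSG00000026003.5; chromosome 1, 66830839 to 66863277, minus strand), the long-chain acyl-CoA dehydrogenase, was at 245, 192, 210 and 245 CPM in shNC 1 to 4, and at 173, 188, 151 and 143 CPM in shTbl1xr1 1 to 4. Its groups were separate by a small margin, between shNC 2 and shTbl1xr1 2. The log2 fold change was -0.45 (SE 0.17; edgeR adjusted p 0.405).

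The other genes of this step differed less, or in opposite ways between libraries. Acadvl, the very-long-chain enzyme of the inner membrane, had a log2 fold change of -0.26 (SE 0.19), Acads for short chains 0.20 (SE 0.19), Acadsb for short branched chains -0.22 (SE 0.18) and Acad11 -0.36 (SE 0.22). On the TMM scale the paired subunits of the electron transfer flavoprotein differed in the shallow libraries, where Etfb lay above the shNC range and Etfa did not. Etfa was at 286, 285, 255 and 302 CPM in shNC 1 to 4, and at 234, 301, 183 and 219 CPM in shTbl1xr1 1 to 4, with a log2 fold change of -0.27 (SE 0.19; edgeR adjusted p 0.545). Etfb was at 384, 380.2, 342 and 344 CPM in shNC 1 to 4, and at 746, 764, 244 and 292 CPM in shTbl1xr1 1 to 4. The shallow libraries were above the shNC range for Etfb and the deeper ones below it, and the log2 fold change was 0.50 (SE 0.37; edgeR adjusted p 0.568). On the deposited TPM scale Etfb was at 763, 923, 876 and 874 in shNC and at 721, 655, 609 and 695 in shTbl1xr1. Etfa was at 293, 322, 310 and 348 TPM in shNC and at 129, 148, 215 and 256 TPM in shTbl1xr1. For both subunits all 4 shTbl1xr1 libraries were below all shNC libraries on that scale.

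Transcripts of both subunits of the mitochondrial trifunctional protein, which runs the last steps for long chains, were lower in shTbl1xr1, though edgeR called neither. Hadha (ENSMUSG00000025745.12; chromosome 5, 30118304 to 30155162, minus strand) was at 428, 358, 459 and 426 CPM in shNC 1 to 4, and at 357, 314, 280.0 and 331 CPM in shTbl1xr1 1 to 4. Hadhb (ENSMUSG00000059447.13; chromosome 5, 30155248 to 30184593, plus strand) was at 292, 224, 286 and 257 CPM in shNC 1 to 4, and at 212, 198, 161 and 204 CPM in shTbl1xr1 1 to 4. Neither gene's groups overlapped, but for Hadha shTbl1xr1 1 was only just below shNC 2, and shNC 2 was the lowest control for both. The log2 fold changes were -0.38 (SE 0.17; edgeR adjusted p 0.426) for Hadha and -0.45 (SE 0.17; edgeR adjusted p 0.405) for Hadhb. Of the other 6 genes, Hadh, the short-chain hydroxyacyl-CoA dehydrogenase, had -0.21 (SE 0.21), and Echs1, the short-chain enoyl-CoA hydratase, had 0.05 (SE 0.19). Eci1 and Eci2, isomerases for unsaturated chains, had 0.14 (SE 0.31) and -0.16 (SE 0.21), and Decr1, the dienoyl-CoA reductase, had -0.16 (SE 0.22). Acaa2, a thiolase of the last step, was at 814, 656, 779.8 and 782 CPM in shNC 1 to 4, and at 1180, 1069, 500.3 and 559 CPM in shTbl1xr1 1 to 4. As with Fabp1 and Etfb, both shallow libraries were above the controls and both deeper ones below, and the log2 fold change was 0.13 (SE 0.30; edgeR adjusted p 0.871).

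Of the ketone body genes, Acat1 had the lowest log2 fold change of all 37 members. Acat1 (ENSMUSG00000032047.5; chromosome 9, 53580522 to 53610382, minus strand), the mitochondrial acetoacetyl-CoA thiolase that joins acetyl-CoA units at the entry to ketogenesis, was at 374, 288, 419 and 443 CPM in shNC 1 to 4, and at 219, 226, 144 and 190.0 CPM in shTbl1xr1 1 to 4. The groups did not overlap, and on this TMM scale the deeper libraries were lower than the shallow ones. On the deposited TPM scale Acat1 was at 63.3, 56.8, 62.0 and 82.7 in shTbl1xr1 1 to 4, without that order. Means of 381 ± 68.3 and 195 ± 36.95 CPM (SD, n = 4) gave a log2 fold change of -0.97 (SE 0.22; unadjusted p 0.00122). The adjusted p of Acat1 was 0.217 in edgeR's quasi-likelihood test and 0.00181 in DESeq2. Bdh1, which converts acetoacetate to hydroxybutyrate, averaged 229 ± 39.1 CPM in the shNC libraries and 194 ± 42.5 CPM in the shTbl1xr1 ones (SD, n = 4), a log2 fold change of -0.24 (SE 0.21).

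The pyruvate dehydrogenase kinases, which hold back glucose-derived acetyl-CoA when fat is burned, went in different directions and varied widely. Pdk4 was at 11.8, 17.5, 67.5 and 36.5 CPM in shNC 1 to 4, and at 15.1, 5.94, 65.4 and 17.7 CPM in shTbl1xr1 1 to 4. The spread inside each group exceeded the difference between them, and the log2 fold change was -0.33 (SE 0.72; edgeR adjusted p 0.852). Pdk2 was at 33.7, 23.2, 37.1 and 34.9 CPM in shNC 1 to 4, and at 46.9, 46.7, 25.6 and 75.9 CPM in shTbl1xr1 1 to 4. It had the highest log2 fold change of the members at 0.60 (SE 0.30; unadjusted p 0.0755, edgeR adjusted p 0.442), with shTbl1xr1 3 inside the shNC range and the other 3 above it.

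**Figure D2:**
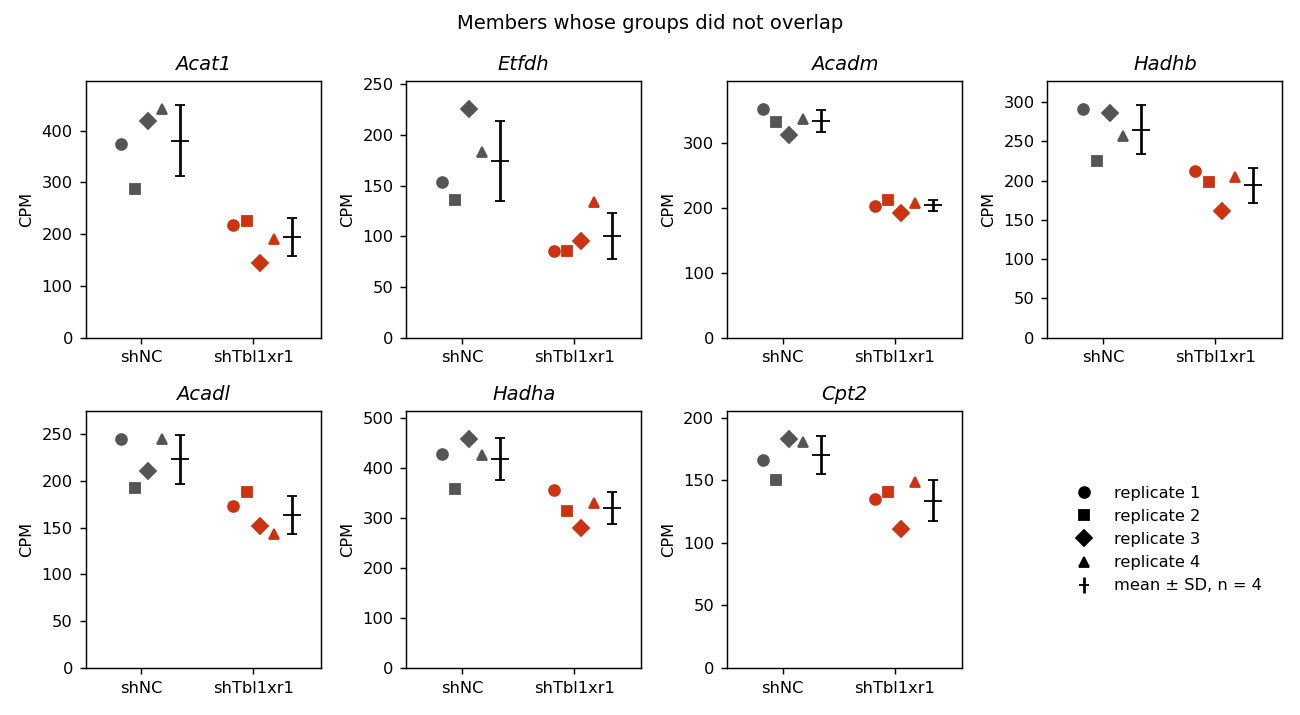
CPM (TMM-scaled, vertical axes from 0) of the 7 members whose groups did not overlap, by library, with mean and SD of 4 libraries in each group. Every shTbl1xr1 point is below every shNC point; for Acadm the groups span 312 to 353 and 192 to 212 CPM.

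The pairs of shTbl1xr1 libraries gave different pictures. Relative to the shNC mean, the median member was at -0.17 on the log2 scale in shTbl1xr1 1 and 2 and at -0.34 in shTbl1xr1 3 and 4, beside -0.09 and 0.00 for all genes tested. For 19 of the 37 members both pair means were below the shNC mean, and for Acsl5 and Pdk2 both were above it. Another 11 were above it in the shallow pair and below it in the deeper pair, namely Acsm1, Fabp1, Acot1, Slc25a20, Acads, Etfb, Hadh, Echs1, Eci1, Decr1 and Acaa2. The remaining 5, Acsl4, Acsm5, Acot2, Cpt1b and Pdk4, had the reverse pattern. In shTbl1xr1 3 and 4, 17 members (45.9%) lay below the whole shNC range in both libraries, beside 10.4% of all genes, and 0 lay above it in both (10.6% of all genes). Those 17 were Fabp1, Cpt2, Slc25a20, Acadm, Acadl, Acadvl, Etfa, Etfb, Etfdh, Hadha, Hadhb, Hadh, Eci1, Decr1, Acaa2, Acat1 and Bdh1. In shTbl1xr1 1 and 2, 11 members (29.7%) lay below the range and 8 (21.6%) above it, beside 32.9% and 29.2% of all genes, so the shallow pair's shares were near or under the background. These positions hold for TMM scaling, whose factors were 0.734 and 0.675 in the shallow libraries and 1.08 to 1.16 in the other 6; scaling by library size alone places the shallow pair lower.

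**Figure D3:**
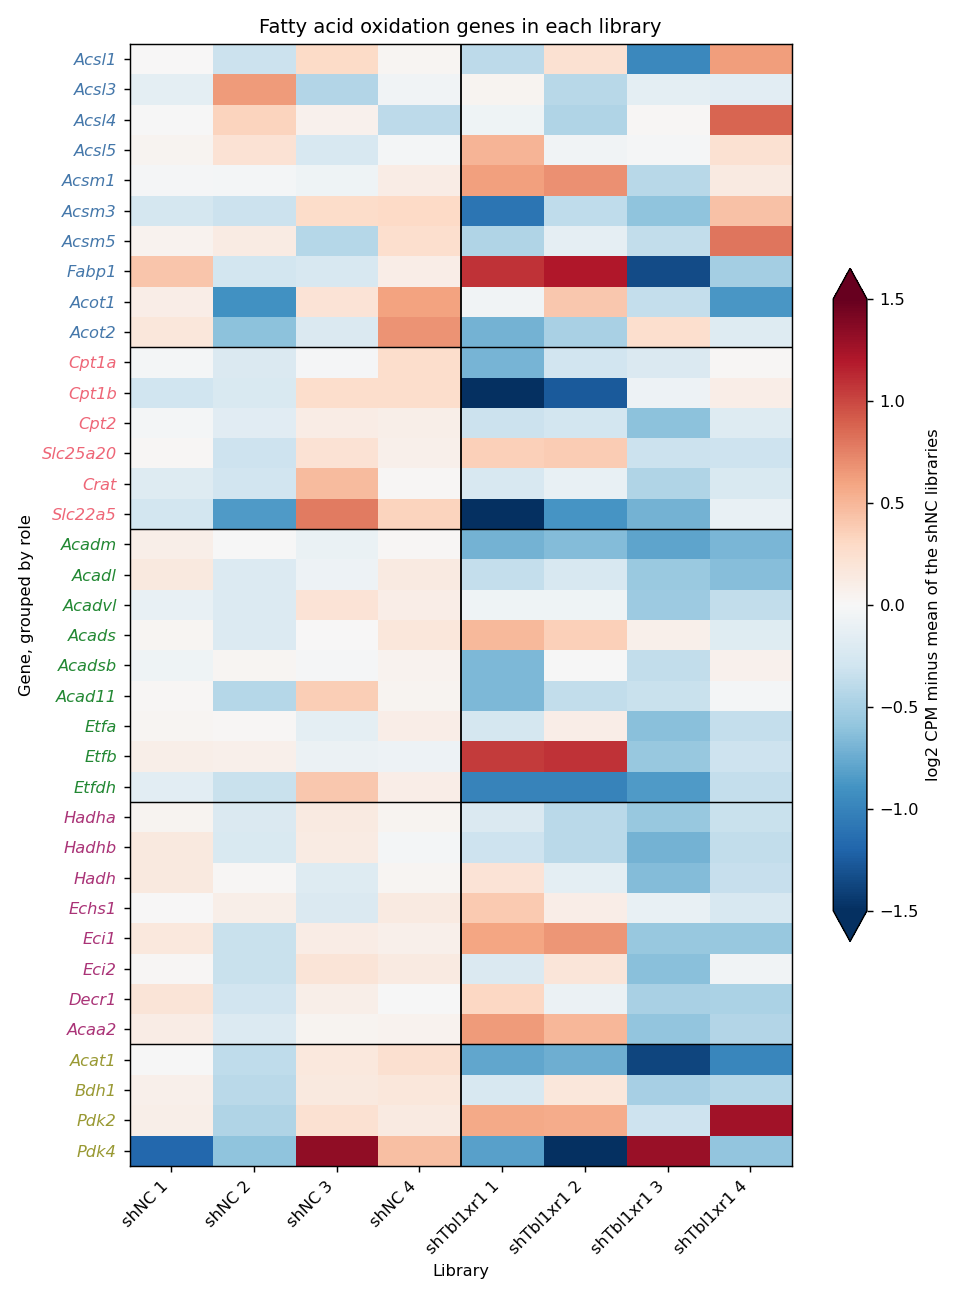
Log2 CPM of each member minus its mean over the 4 shNC libraries, by library (columns) and role (blocks of rows); the colour bar gives the scale. In shTbl1xr1 3 and 4, 17 members lie below the shNC range in both libraries, while shTbl1xr1 1 and 2 are mixed.

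**Figure D4:**
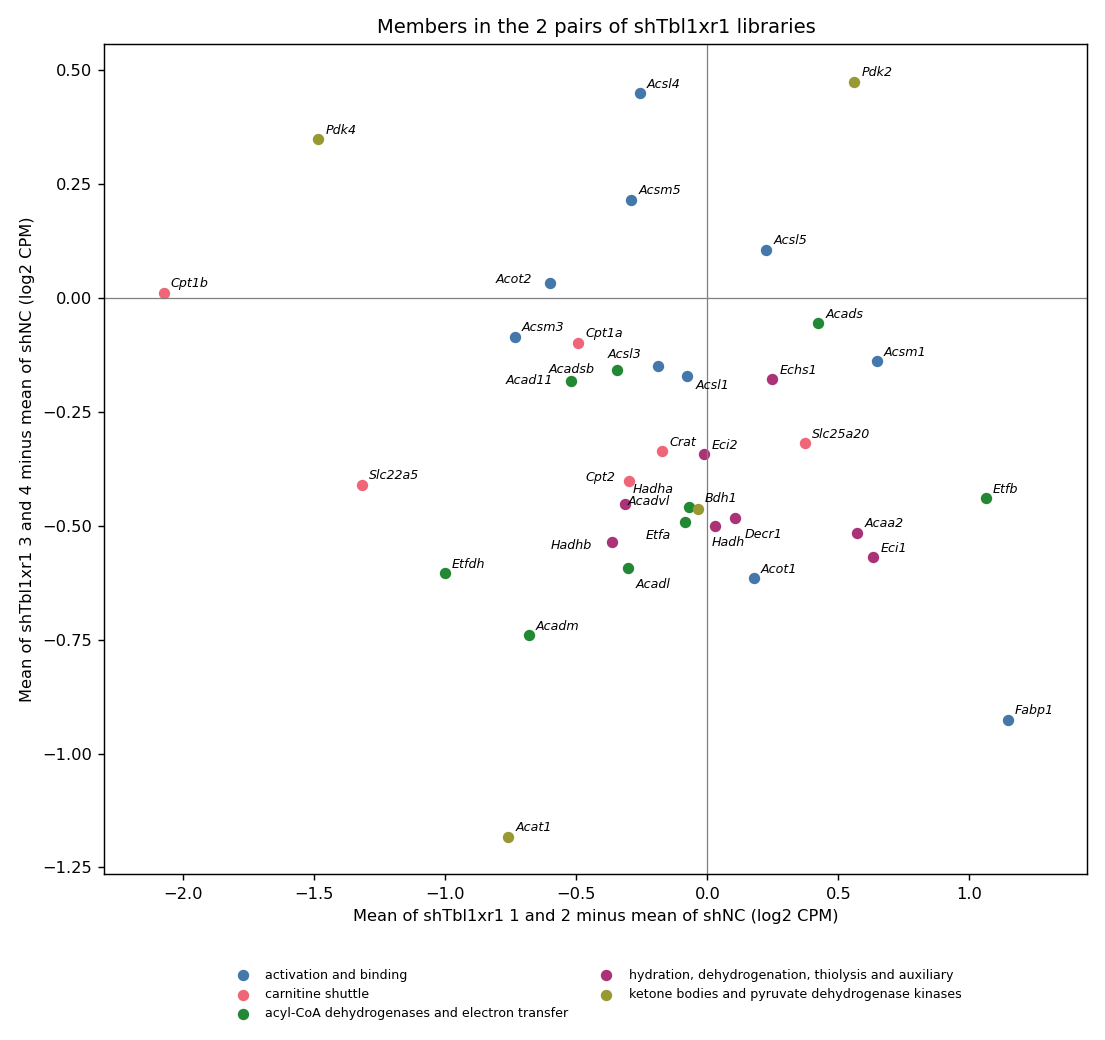
Mean difference from shNC in log2 CPM for the shallow pair (horizontal axis) and the deeper pair (vertical axis), 1 point per member, coloured by role. The lower left holds 19 members and the lower right 11, with Fabp1 and Etfb farthest out.

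Fitted against the 4 shNC libraries alone, the shallow pair had 7 members higher in edgeR at an adjusted p under 0.05 (Acsm1, Fabp1, Acads, Etfb, Eci1, Acaa2 and Pdk2) and 5 lower (Cpt1a, Cpt1b, Acadm, Etfdh and Acat1). The backgrounds were 21.5% and 21.1% of all genes. The deeper pair had 0 members called in edgeR (background 0.0478% higher and 0.0% lower, smallest member adjusted p 0.161), with 16 members (43.2%) lower and 0 higher at an unadjusted p under 0.05, beside 4.62% and 6.73% of all genes. Acadm, Etfdh and Acat1 had all shTbl1xr1 libraries below all shNC libraries in CPM, so a lower value in both fits followed from that. Their log2 fold changes were -0.69, -1.03 and -0.78 in the shallow pair and -0.74, -0.61 and -1.19 in the deeper pair.

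The difference between the pairs moved with transcript length. Across the 37 members, Spearman's rho between the transcript length and the log2 difference from shNC was -0.64 in the shallow pair and 0.44 in the deeper pair. Over all 13908 genes it was -0.53 and 0.25. The points share the same libraries and depth, so these are descriptions across genes. In the shallow pair the 18 members with transcripts under 2179 bases had a median of 0.20 and the 19 longer ones -0.34, beside 0.41 and -0.37 for all genes. In the deeper pair the medians were -0.48 and -0.16, beside -0.09 and 0.06 for all genes. With a length trend removed from every library, an alternative added after seeing the data, 30 of 37 members had log2 fold changes below 0 and the median was -0.24; edgeR then called Acadm alone lower (adjusted p 0.0420, background 0.0216%, and 0.187% higher). On the deposited TPM scale, mean levels were lower in shTbl1xr1 for 36 of the 37 members and for 84.0% of all genes tested, with Pdk2 the exception. TPM groups did not overlap for 12 members, all lower in shTbl1xr1 (32.4%, beside 5.72% of all genes). The median log2 ratio of TPM means was -0.58 for the members and -0.38 for all genes. What part length or RNA quality has in any member's difference was not tested further.

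**Figure D5:**
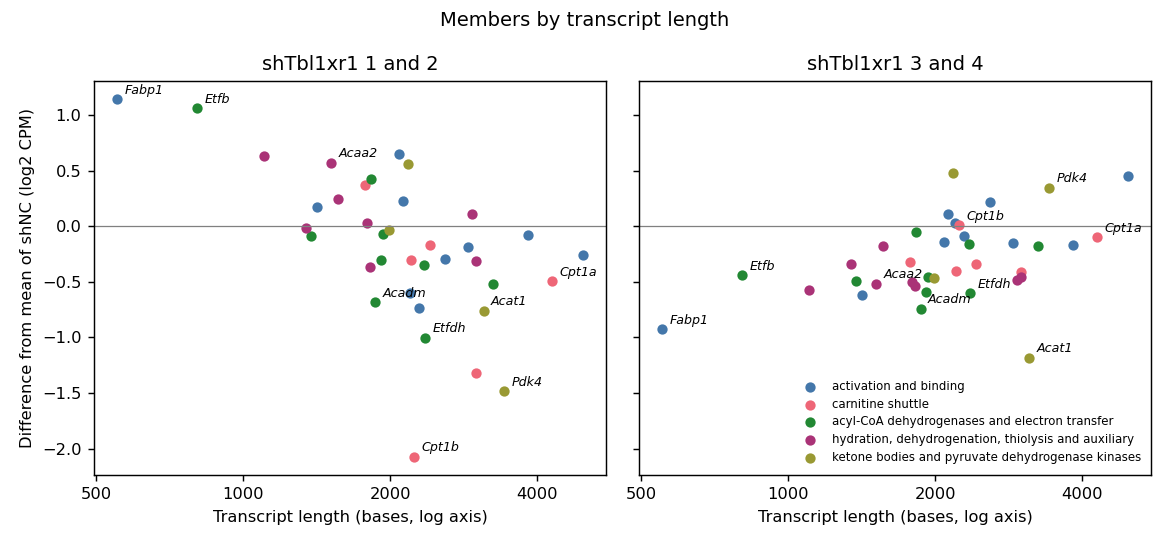
Difference from the shNC mean in log2 CPM (vertical axis) against transcript length in bases (log axis) for each member, in shTbl1xr1 1 and 2 (left) and 3 and 4 (right), coloured by role. Short transcripts such as Fabp1 and Etfb lie above 0 on the left and below 0 on the right, while Acadm, Etfdh and Acat1 lie below 0 in both.

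Other gene lists of the same and neighbouring pathways had medians above the members' -0.24 in the fit of all 8 libraries. Of 28 tested genes of mitochondrial fatty acid oxidation and ketogenesis outside the list, 22 had log2 fold changes above 0 and 6 below, with a median of 0.21, and edgeR called 0. At an unadjusted p under 0.05, 6 of them (21.4%) were higher and 1 (3.57%) lower, beside 7.9% and 3.71% of all genes. Acsf2, an acyl-CoA synthetase, averaged 141 ± 9.51 CPM in the shNC libraries and 222 ± 33.9 CPM in the shTbl1xr1 ones (SD, n = 4), with groups that did not overlap and a log2 fold change of 0.66 (SE 0.17; edgeR adjusted p 0.290).

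Of 31 tested PPAR alpha pathway genes outside the members, 16 had log2 fold changes above 0 and 15 below, with a median of 0.02, and edgeR called 0 (at an unadjusted p under 0.05, 1 higher, 3.23%, and 0 lower, against the same 7.9% and 3.71%). Cyp4a31, a fatty acid hydroxylase of a family with close copies, had 1.15 (SE 0.33), and Acot3, a peroxisomal thioesterase, had -0.83 (SE 0.45). The 22 genes of the citric acid cycle and pyruvate dehydrogenase had a median of 0.05, with Idh3a at 0.74 (SE 0.19) and Dld at -0.35 (SE 0.16), and edgeR called 0 (at an unadjusted p under 0.05, 2 higher, 9.09%, and 0 lower). The 20 nuclear genes of the respiratory chain had a median of 0.41, with 18 above 0, and edgeR called 0 (at an unadjusted p under 0.05, 1 higher, 5.0%, and 0 lower). Their median was 0.79 in the shallow pair and -0.13 in the deeper pair, beside -0.17 and -0.34 for the members. In the same order, the outside oxidation and ketogenesis genes were at 0.20 and 0.07, and the citric acid cycle genes at 0.13 and -0.05. PPAR alpha pathway genes were at -0.17 and -0.01, so they lay above the members in the deeper pair only.

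Levels of cell markers differed between the same pairs of libraries. The median hepatocyte marker was at 0.69 relative to shNC in the shallow pair and at -0.07 in the deeper pair, on the log2 scale. Macrophage markers were at -1.32 and -0.07, stellate cell markers at -1.48 and -0.07, and endothelial markers at -0.88 and 0.07. Cholangiocyte markers were at -0.12 and 0.68, with 1.80 in shTbl1xr1 3 and -0.43 in shTbl1xr1 4, and red blood cell markers were at -0.11 and -0.27. The 3 neutrophil markers tested were at -0.31 and 0.96, and the 3 lymphocyte markers tested at -1.70 and -0.44. The part of cell makeup in the members' levels was not tested.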

How the data were processed

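Total RNA of whole liver was measured in 8 libraries, 4 shNC and 4 shTbl1xr1, grouped by the submitters' titles and treatment labels. Per the file headers, the authors' tables give, for 55401 genes, an expected count, the gene length and the TPM and FPKM that the authors derived from it. STAR, RSEM, DESeq2 1.30.1 and mm10 appear in the submitters' processing notes; no source used here gives the annotation release or strand setting. RSEM shares fragments among near-identical genes, and 7.37% of the deposited expected counts were not whole. Gene symbols and positions were taken from GENCODE mouse release 21, which matched 55141 gene identifiers without the version suffix.

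Expected counts were rounded, filtered with filterByExpr, scaled by TMM and compared with edgeR 4.0.16 (R 4.3.3) by its quasi-likelihood F test (robust, without covariates). P-values were adjusted by Benjamini-Hochberg over the 13908 genes that passed, and the threshold was 0.05. CPM values are TMM-scaled, and log2 levels used a prior count of 2. Deposited TPM was used for levels between genes, and FPKM was not used. Alternatives used DESeq2 1.42.0, limma 3.58.1 (voom, always with sample weights), sva 3.50.0, other scalings and filters, a replicate block and subsets of libraries. Another, added after seeing the data, removed a length trend by a lowess curve. On simulated counts, edgeR recovered 20% of genes changed 2-fold and 76% of genes changed 4-fold for shTbl1xr1 against shNC (13681 genes), with 4 false calls. DESeq2 recovered 43% and 80%, with 33 false calls. Apart from the changed genes, the simulated libraries shared a common mean profile, without the shallow pair's shift or a trend with length. The figures may therefore not hold for the real libraries. No 2 libraries agreed within sampling noise.

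The members and gene lists were chosen with earlier results of these data known. All members are named; values in every library are given for members with an unadjusted p under 0.05 or groups that did not overlap, for Cpt1a, Cpt2, Hadha, Fabp1 and Pdk4 in any case, and, chosen after their values were seen, for Etfa, Etfb, Acaa2, Pdk2 and Cpt1b. Of each other list at most 4 genes were eligible to be named, by smallest unadjusted p. Of the genes so eligible, 1 is not reported here.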

Additional observations from a re-analysis of the deposited data

Results flagged for a closer look

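Bdh1, the ketone body dehydrogenase, had 1 control library far from the others. shNC 2 was at 172 CPM, while the other 3 shNC libraries were at 239 to 256 CPM. The gap from shNC 2 to its nearest neighbour was 0.836 of the group's whole range, above Dixon's 95% critical value for 4 libraries. Across the 74 groups checked, 1 was picked out, and chance alone picks out about 1 in 20. The shNC 2 library also had the lowest median member level of the 4 controls, at -0.23 relative to the shNC mean on the log2 scale, beside 0.02, 0.11 and 0.10 in the others.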

How the results depend on the processing

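The members' median log2 fold change stayed below 0 under every alternative run, from -0.53 with library size alone to -0.17 when 1 library was left out (range -0.28 to -0.17 over the 8 leave-one-out fits). edgeR's count of all genes called, 6 higher and 1 lower, was not stable. It became 3 higher with library size alone, 12 higher with no filter, 248 higher and 47 lower with DESeq2, 31 and 2 with limma-voom, 38 and 4 with 1 surrogate variable, 26 and 3 with the length trend removed, 0 lower with the deeper libraries only, and 3073 and 3021 with the shallow pair only. Leaving out 1 library gave 0 to 28 higher and 0 to 6 lower, with 28 and 6 without shTbl1xr1 4, and 0 of both without shNC 1, shNC 2 or shNC 4. Called members were 0 except for 3 lower with DESeq2, 1 lower with 1 surrogate variable, 1 lower with the length trend removed, and 7 higher and 5 lower with the shallow pair only; every leave-one-out fit called 0. At an unadjusted p under 0.05 those fits had 3 to 8 members lower (8.11% to 21.6%, beside 2.07% to 11.1% of all genes, both highest without shTbl1xr1 4) and 0 higher, except 3 higher without shTbl1xr1 3 (8.11%, beside 12.2%). Same-numbered libraries deviated from their group means with correlations of 0.38, -0.07, 0.30 and 0.12, and differently numbered ones of -0.38 to 0.37. Since 1 same-numbered pair was below 0.1, the numbers were not taken to pair the libraries. With the replicate block edgeR called 4 genes higher and 1 lower, 0 members, and the members' median was -0.25. Log2 fold changes with the opposite sign from the 8-library edgeR fit were as follows. With 1 surrogate variable they were Acsl1 0.038, Acsm1 -0.055, Fabp1 -0.75, Slc25a20 -0.28, Acads -0.025, Etfb -0.33, Echs1 -0.16, Eci1 -0.50, Acaa2 -0.44 and Pdk4 0.41. With the deeper libraries only they were Acsl1 0.018, Acsm1 -0.12, Fabp1 -0.90, Slc25a20 -0.33, Acads -0.058, Etfb -0.44, Echs1 -0.19, Eci1 -0.58, Acaa2 -0.52, Pdk4 0.32 and Ndufs3 -0.067. With the length trend removed they were Acsl1 0.15, Fabp1 -0.24, Slc25a20 -0.039, Etfb -0.0014, Echs1 -0.087, Eci1 -0.20 and Acaa2 -0.062. With library size alone they were Acsl4 -0.055, Acsl5 -0.13, Acsm1 -0.073, Acsm5 -0.20, Fabp1 -0.072, Slc25a20 -0.33, Acads -0.15, Echs1 -0.29, Eci1 -0.30 and Acaa2 -0.29. With the shallow pair only they were Acsl4 -0.27, Acsm5 -0.31, Acot1 0.096, Hadh 0.032 and Decr1 0.11. Limma-voom gave Acsl4 -0.032 and Acsm5 -0.24, upper quartile scaling Acsm5 -0.033, Slc25a20 -0.035 and Echs1 -0.035, and the replicate block Acsm5 -0.034. Over the leave-one-out fits the values that crossed 0 were Acaa2 -0.097 to 0.30, Acsl1 -0.31 to 0.20, Acsl3 -0.35 to 0.043, Acsl4 -0.17 to 0.32, Acsm5 -0.34 to 0.17, Echs1 -0.084 to 0.13, Eci1 -0.086 to 0.32, Pdk4 -1.34 to 0.27 and Slc25a20 -0.072 to 0.16. The causes were not tested, apart from fewer libraries in the subsets. Low genes rest on few counts in the shallow libraries, as Cpt1b does at 1 and 4 counts. Scaled to depth, Cpt1b was at 0.125 and 0.552 CPM there, beside 1.15 to 1.74 CPM in shNC. The part of depth in this was not tested.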
